A study of Mus musculus with 4 samples.

Results

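Plasmacytoid dendritic cells (pDCs) are a rare dendritic cell type that patrols blood and tissues in search of nucleic acids. They were identified here among the leukocytes of subcutaneous MC38 tumours, a mouse colorectal carcinoma line grown under the skin. The groups were cKO tumours (2 libraries, cKO-1 and cKO-2), from mice carrying a conditional knockout of Trim25, and WT tumours (2 libraries, WT-1 and WT-2), from wild-type mice. All mice were 8 weeks old, all were injected with 100000 MC38 cells, and CD45-positive cells were sorted for droplet single-cell RNA sequencing. The series title places the loss of Trim25 in T cells, so that the pDCs studied here need not carry the deletion themselves. Which Cre line drives it and how many mice went into a library is not given by the labels. The sample labels name the colon and a colorectal tumour line as the source, whereas the design describes sorted immune cells, and Ptprc, which encodes CD45, was read in pDCs at 3983 and 3478 UMIs per 1000000 (CPM) in the cKO libraries, against 3705 and 3519 CPM in the WT libraries.

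pDCs were chosen by raw UMIs (unique molecular identifiers, each 1 captured RNA molecule). A cell had to show at least 3 UMIs of Siglech, at least 1 UMI of Ccr9 or Cox6a2, at most 1 UMI of the CD3 chains Cd3d, Cd3e and Cd3g together, at most 2 UMIs of Cd79a, and fewer than 10 UMIs of C1qa, C1qb and C1qc per 10000. Of the 39906 cells that passed the quality limits, 795 (1.99%) met the rule: 95 in cKO-1, 227 in cKO-2, 166 in WT-1 and 307 in WT-2. Ccr9 was read in 788 of them, Cox6a2 in 609 and both in 602. Because these genes chose the cells, their levels below are given as a description and carry no test.

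pDCs detect viral and self RNA and DNA in endosomes through the Toll-like receptors TLR7 and TLR9 and can answer with very large amounts of type I interferon. The E-protein TCF4 (E2-2) holds their identity in place, with SPIB, IRF8, RUNX2 and BCL11A as partners. In tumours pDCs are often described as poor interferon producers that can be tolerogenic. TRIM25 is an E3 ubiquitin ligase known for its role in RIG-I signalling, and VISTA, encoded by Vsir, is an inhibitory receptor of the B7 family named in the series title.

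The promoters of 3 of the genes that set these cells apart and those of the inducible Hsp70 genes, on which the comparison of genotypes turns, are shown as examples of promoters that hold a motif. The windows hold the 250 bases before the annotated start (RefSeq, GRCm38.p6), written 5′ to 3′ in the gene's direction. The 3 pDC genes were picked from those with a match, and Grm8, Cacna1e and Pacsin1, also leading genes, have 0. In the pDC genes the capitals mark every E-box, CANNTG, the letters that E-proteins such as TCF4 are known to bind. Siglech (chr7:55767934-55768183, plus strand) has 3, Ccr9 (chr9:123766961-123767210, plus strand) has 2 and Dntt (chr19:41029025-41029274, plus strand) has 3.
Siglech: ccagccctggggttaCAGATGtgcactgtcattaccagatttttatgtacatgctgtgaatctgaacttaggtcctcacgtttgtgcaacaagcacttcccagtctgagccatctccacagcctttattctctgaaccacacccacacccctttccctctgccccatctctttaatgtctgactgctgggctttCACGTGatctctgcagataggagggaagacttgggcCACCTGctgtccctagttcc
Ccr9: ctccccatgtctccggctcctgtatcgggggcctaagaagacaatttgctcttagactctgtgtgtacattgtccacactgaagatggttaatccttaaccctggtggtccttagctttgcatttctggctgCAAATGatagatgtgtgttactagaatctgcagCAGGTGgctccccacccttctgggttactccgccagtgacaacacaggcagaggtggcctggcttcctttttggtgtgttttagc
Dntt: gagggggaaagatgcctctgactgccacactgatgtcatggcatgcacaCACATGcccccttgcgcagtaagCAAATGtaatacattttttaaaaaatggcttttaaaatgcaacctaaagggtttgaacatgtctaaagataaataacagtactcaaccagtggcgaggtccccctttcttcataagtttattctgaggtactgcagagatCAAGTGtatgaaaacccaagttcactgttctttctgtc

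Both strands were searched, and CACCTG, counted on its own, is also a CANNTG match. Of the 20 genes that led the pDCs (below), 12 had an entry in the promoter table. CANNTG was found in 9 of these 12 (75.0%) and in 66.2% of 32851 mouse promoters of the same length, a share close to it; CACCTG in 5 of 12 (41.7%) and in 17.2%; and the ETS core GGAAGT in 3 of 12 and in 19.7%. Siglech and Ccr9, which chose the cells, are among the 12, and both count among those with CANNTG and with CACCTG. These are letter matches in short windows, not measured binding.

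In the Hsp70 promoters the capitals mark GAANNTTC, a pair of facing half-sites of the heat-shock element to which HSF1 binds. Hspa1a (chr17:34972157-34972406, minus strand) and Hspa1b (chr17:34959239-34959488, minus strand) are neighbours, and 247 of their 250 promoter bases (98.8%) are equal. Each window has 1 match, which near-equal copies share by their common sequence; the motif is found in 6.69% of all promoters, and the neighbouring Hspa1l has 0. This motif was chosen after the values of these genes had been seen.
Hspa1a: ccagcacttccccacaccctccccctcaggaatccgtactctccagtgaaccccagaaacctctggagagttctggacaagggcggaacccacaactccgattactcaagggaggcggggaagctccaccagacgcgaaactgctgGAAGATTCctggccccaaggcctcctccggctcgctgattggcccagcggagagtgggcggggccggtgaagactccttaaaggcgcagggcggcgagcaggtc
Hspa1b: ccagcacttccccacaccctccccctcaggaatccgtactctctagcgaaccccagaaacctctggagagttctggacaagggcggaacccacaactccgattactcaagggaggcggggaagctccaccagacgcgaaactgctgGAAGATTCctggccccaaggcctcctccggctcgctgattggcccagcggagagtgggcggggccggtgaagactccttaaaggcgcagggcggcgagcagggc

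The pDCs were deeply read. Their median was 15150 UMIs in cKO-1 and 14385 in cKO-2, against 12774 in WT-1 and 11210 in WT-2, while all kept cells had medians of 7796 to 10017. The sums over pDCs, on which the gene comparisons rest, held 1432291 and 3272512 UMIs in the cKO libraries, against 2172843 and 3390796 in the WT libraries. A doublet score above 0.2 was given to 0 and 10 pDCs of the cKO libraries, against 5 and 16 of the WT libraries. Of the barcodes, 310 occurred in more than 1 library, and 0 were a pDC in both. Library replicates differed by more than the counting noise of UMIs, with a chi-square per degree of freedom of 4.04 between the cKO pair and 3.96 between the WT pair. This measure takes each UMI as an independent draw, so unevenness among the cells can raise it too. Nothing in the labels says that libraries of a group came from separate mice, so the p-values reflect the spread among 4 libraries, and that spread may be purely technical.

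The first question was whether cKO tumours held a different share of pDCs. pDCs made up 1.16% of kept cells in cKO-1 (95% Wilson interval 0.948 to 1.41) and 2.42% in cKO-2 (2.13 to 2.75), against 1.62% in WT-1 (1.40 to 1.89) and 2.54% in WT-2 (2.27 to 2.83). The intervals cover counting error only. The groups overlapped, and the libraries within a group differed from each other by more than the groups did. The mean share was 1.79% ± 0.891 in cKO and 2.08% ± 0.647 in WT tumours (SD, n = 2 each), a difference of -0.293 percentage points (exact permutation test, two-sided, p = 0.667; the smallest p this design allows is 0.333). Without cKO-1 the difference was 0.337 and without WT-2 it was 0.164, so its direction rests on single libraries. The share is of sorted CD45-positive cells and says nothing of pDC numbers per tumour.

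Cells near the limits of the rule were few. Siglech stood at 3 or 4 UMIs in 55 of the pDCs, and 30 further cells met every condition but had 2 Siglech UMIs. Tcf4 was at 3902 CPM in the 55 cells just inside, at 2140 CPM in the 30 just outside and at 4696 CPM in the 740 pDCs with 5 or more Siglech UMIs. By Irf8 the cells just inside were closer to those just outside, at 807 and 818 CPM, against 2478 CPM in the 740, and likewise by Ly6d, at 282 and 255 CPM, against 1503 CPM, and by Spib, at 23.2 and 16.7 CPM, against 127 CPM. Lyz2 was at 475, 87.6 and 308 CPM in the 3 sets. A further 58 cells had 3 or more Siglech UMIs without Ccr9 or Cox6a2, with Tcf4 at 1659 CPM and Irf8 at 356 CPM.

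By transcripts the rule did not use, the cells carried the pDC programme. Of 25 other pDC markers, 23 were higher in pDCs than in all other kept cells in each of the 4 libraries. Bst2 (tetherin, the PDCA-1 antigen), given as a marker but not used to choose cells, was at 828 and 849 CPM in cKO pDCs, against 712 and 880 CPM in WT pDCs. Over the 4 libraries it averaged 817 CPM in pDCs, against 222 CPM in all other cells. The selecting genes stood far above other cells: Siglech, a sialic acid-binding receptor, averaged 2099 CPM against 6.73 CPM in the rest, Ccr9, a chemokine receptor for gut homing, 2315 against 8.44 CPM, and Cox6a2, a subunit of cytochrome c oxidase, 377 against 2.42 CPM.

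The genes that most set pDCs apart, ranked by the ratio of mean CPM plus 1, included several that were not part of the rule. Grm8, a metabotropic glutamate receptor gene, averaged 870 CPM in pDCs and 2.24 CPM in the rest. Klk1, a kallikrein protease, averaged 290 CPM in pDCs and 0.925 CPM in the rest. Dntt, the template-independent DNA polymerase of lymphoid progenitors, averaged 272 CPM in pDCs and 0.884 CPM in the rest. Conventional dendritic cells had next to none of these 3 genes: none exceeded 2.39 CPM in the Xcr1/Clec9a-positive, Cd209a-positive or Ccr7/Fscn1-positive cells. Cd300c, an activating receptor gene, was at 371 CPM in pDCs, 12.1 CPM in Xcr1/Clec9a-positive cells and 12.9 CPM in Cd209a-positive cells. Ly6d, a surface protein of lymphoid progenitors, was shared with B cells, at 1390 CPM in pDCs and 1014 CPM in B cells. The other leading genes were Gm21762, Sh3bgr, Paqr5, Cacna1e, Gm12253, Pir, Gm13919, Cdh5, Pacsin1, Lefty1, Slc41a2 and Ncald, with pDC means between 121 and 565 CPM.

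Among transcription factors, Tcf4 averaged 4705 CPM in pDCs, against 98.0 CPM in T cells and 496 CPM in Cd209a-positive cells. Irf8, needed by both pDCs and type 1 conventional dendritic cells, averaged 2388 CPM in pDCs and 1029 CPM in Xcr1/Clec9a-positive cells. Runx2, which guides pDC exit from the marrow, averaged 2156 CPM in pDCs and 310 CPM in T cells. Spib, an ETS factor, averaged 120 CPM in pDCs and 64.1 CPM in B cells. These factors were at their highest in pDCs among the classes measured here.

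**Figure D1:**
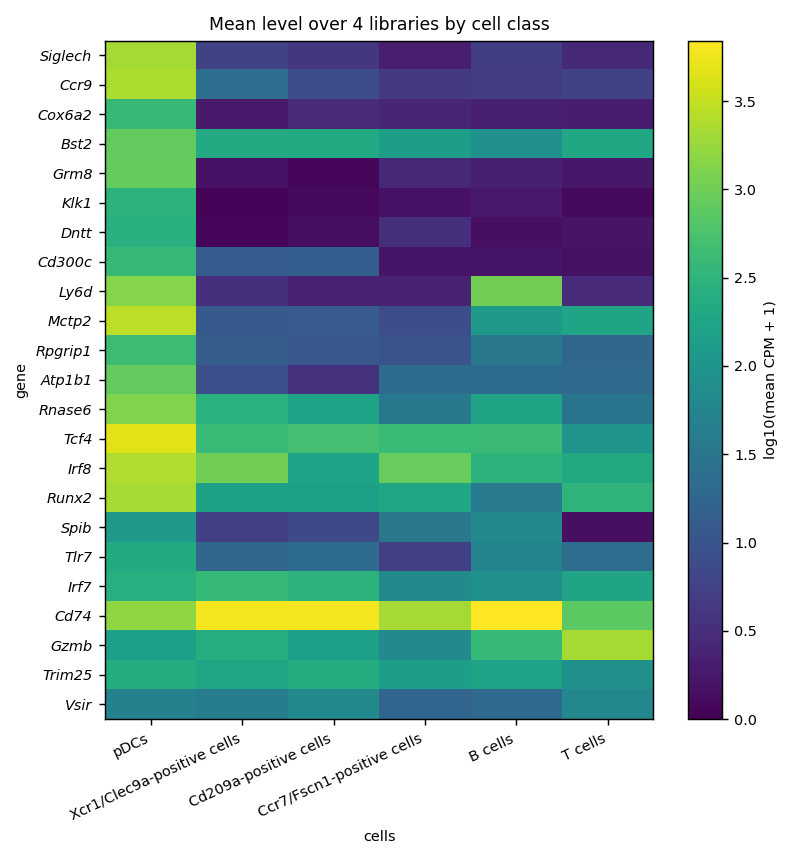
Mean level over the 4 libraries, as log10 of mean CPM plus 1 (colour), of pDC genes and of genes discussed in the text (rows) in pDCs and in 5 other cell classes (columns). Siglech, Ccr9 and Cox6a2, used to choose the cells, and Grm8, Klk1 and Dntt, not used, are bright in the pDC column alone, while Ly6d is also bright in B cells. Cells of the 5 other classes had at most 1 Siglech UMI by definition, so the Siglech contrast is set by the choice of cells.

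Nucleic acid sensing was represented by Tlr7, the endosomal receptor for single-stranded RNA, at 182 and 256 CPM in cKO pDCs, against 231 and 223 CPM in WT pDCs, and at 54.2 CPM on average in other cells. Tlr9, the receptor for CpG DNA, gave 3 and 5 UMIs in cKO pDCs, against 8 and 10 UMIs in WT pDCs. Irf7, the master regulator of interferon-alpha genes, averaged 257 CPM in pDCs, against 374 CPM in Xcr1/Clec9a-positive cells. Few or no UMIs were read from the interferon genes themselves. Ifna1, Ifna2, Ifna4, Ifna5, Ifna6, Ifnab and Ifnl2 had no UMI in any of the 795 pDCs. This allows a share of cells with a UMI of up to 0.377% and a level of up to 0.292 CPM for each. These bounds pool all libraries and take cells and UMIs as independent draws. A 0 says only that no UMI is listed in the files: Myd88, an adaptor gene used by most immune cells, is also at 0 in every cell class. Ifnb1 gave 1 and 0 UMIs in cKO pDCs, against 0 and 6 UMIs in WT pDCs, and Ifnl3 gave 1 and 6 UMIs in cKO, against 0 and 0 UMIs in WT. The 6 Ifnb1 UMIs of WT-2 all came from 1 cell, and the 6 Ifnl3 UMIs of cKO-2 also came from 1 cell.

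The pDCs were not uniform. After thinning each cell to 2000 UMIs, which left out 1 and 4 shallower pDCs of the cKO libraries and 2 and 11 of the WT libraries, the Fano factor (variance over mean of UMIs per cell) had a median of 1.17 over 2796 ranked genes. The chemokine genes Ccl4 and Ccl3 stood far above it, with medians over libraries of 9.93 and 5.74. The interferon-inducible membrane proteins Ifitm3 and Ifitm1 reached 5.04 and 4.96. The MHC class II genes H2-Aa and Cd74 reached 4.08 and 3.95, and the calcium-binding protein S100a4 reached 3.99. Genes read in nearly all pDCs were also among the 15 most uneven: Actb at 5.71, Malat1 at 4.51, mt-Atp6 at 4.32 and Tmsb4x at 4.01. The Fano factor was not adjusted for mean level, so the ranking is not particular to immune genes. Gzmb (granzyme B) reached 7.12 and Lyz2 (lysozyme) 7.61; in cKO-1, however, both were near or below the median of all genes, at 1.05 and 0.860, and in other libraries part of it came from single cells, since 1 cell held 65.0% of the Gzmb UMIs of cKO-2 and 78.0% of those of WT-1. Ccl4, an inflammatory chemokine gene, was not the work of single cells: the cell with the most held 8.03% and 3.27% of its UMIs in cKO pDCs, against 10.5% and 5.44% in WT pDCs.

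Part of this unevenness followed Siglech. pDCs with 3 to 9 Siglech UMIs numbered 14 (14.7%) and 36 (15.9%) in the cKO libraries, against 32 (19.3%) and 72 (23.5%) in the WT libraries; they had fewer UMIs in all, with medians of 4443 to 7274, against 11998 to 15419 in pDCs with 10 or more Siglech UMIs. This limit was chosen after the values were seen, and depth enters a limit on raw UMIs, so the levels are a description. In the low-Siglech cells Ifitm1 was at 857 to 1300 CPM over the 4 libraries, against 15.2 to 101 CPM in the high-Siglech cells. Cd209a (DC-SIGN, common on type 2 conventional dendritic cells) was at 148 to 235 CPM, against 25.5 to 38.8 CPM. The other listed markers of type 2 conventional dendritic cells did not follow it. Mgl2 was lower in the low-Siglech cells, at 0 to 7.89 CPM, against 16.9 to 29.5 CPM. Sirpa and Cd1d1 were higher in the low-Siglech cells of 1 library, and Clec10a and Itgam in those of 2. Zbtb46, a transcription factor of conventional dendritic cells, was at 64.5 to 146 CPM, against 10.3 to 26.4 CPM. Ifitm1, Cd209a and Zbtb46 were each higher in the low-Siglech cells of all 4 libraries, and so were Ifitm3, S100a4, Cd7, Ccr2, Itgax, Flt3 and Actb.

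Most genes of the pDC programme were lower there without being absent. Tcf4 was at 3241 to 4169 CPM in low-Siglech cells, against 4551 to 5272 CPM in high-Siglech cells. Bcl11a, at 1447 to 1548 CPM against 1273 to 1444 CPM, was higher in the low-Siglech cells of all 4 libraries. So were Cd7 and Flt3, named above, which are also among the listed pDC markers. Dntt was at 40.6 to 78.9 CPM, against 281 to 334 CPM, Tlr7 at 27.9 to 129 CPM, against 199 to 279 CPM, and Ly6d at 341 to 850 CPM, against 1295 to 1764 CPM. Ly6c2, Irf7 and Bst2 overlapped between the bands. The MHC class II gene H2-Aa was lower in the low-Siglech cells of all 4 libraries, at 355 to 1082 CPM, against 985 to 1194 CPM. These are levels summed over 14 to 72 cells a library, which do not show whether the same cells carry both sets of genes, and the low-Siglech cells were given no name of their own.

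**Figure D2:**
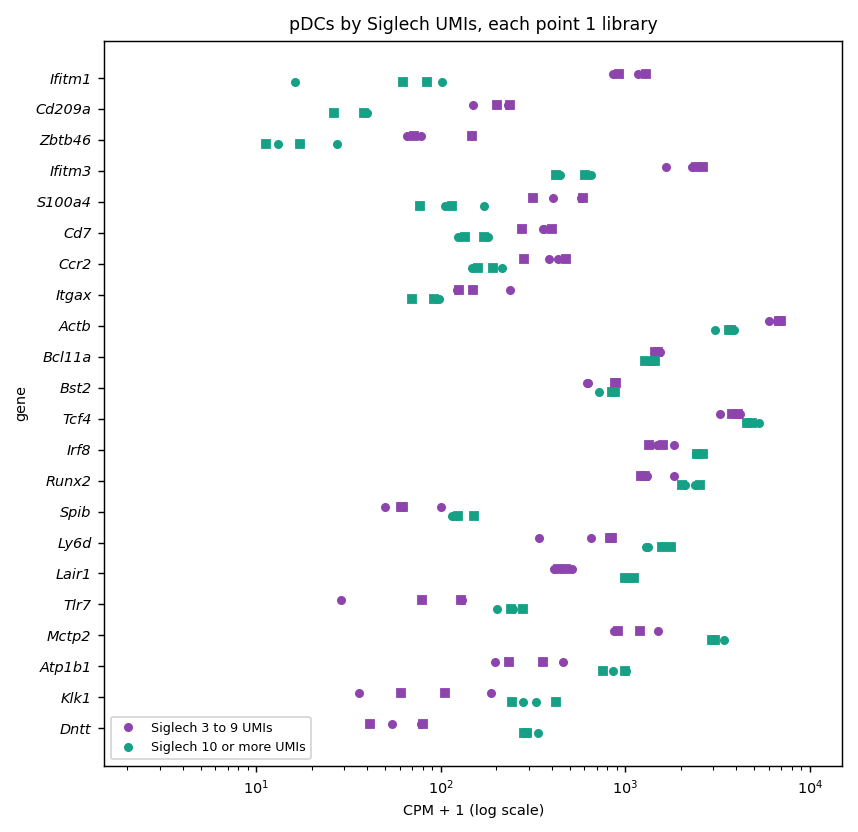
Level (CPM plus 1, log axis) of genes in pDCs with 3 to 9 Siglech UMIs and in pDCs with 10 or more, each point 1 library (circles replicate 1, squares replicate 2). Ifitm1, Cd209a and Zbtb46 are higher in the low-Siglech cells of every library, Dntt, Klk1, Tlr7 and Ly6d lower, and Tcf4 is lower by a smaller factor.

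The second question was which genes differ between pDCs of cKO and WT tumours. For the targeted gene the groups overlapped in pDCs: Trim25 was at 212 and 257 CPM in cKO pDCs, against 226 and 250 CPM in WT pDCs (log2 fold change -0.01 ± 0.15, SE; adjusted p = 0.999, edgeR quasi-likelihood test). In T cells, where the title places the deletion, Trim25 was at 76.2 and 85.4 CPM in cKO, against 89.2 and 90.7 CPM in WT. A lower level in both cKO libraries was not limited to T cells. In Cd209a-positive cells Trim25 was at 202 and 219 CPM in cKO, against 275 and 250 CPM in WT. It was also lower in both cKO libraries in Xcr1/Clec9a-positive and Ccr7/Fscn1-positive cells, whereas B cells overlapped. Reads of a 3′ library can lie outside a deleted exon, so these levels do not check the labels. Vsir was at 37.7 and 44.3 CPM in cKO pDCs, against 64.4 and 41.9 CPM in WT pDCs, and the groups overlapped (log2 fold change -0.33 ± 0.24, edgeR adjusted p = 0.940).

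Of 9938 genes tested, 1 passed an adjusted p of 0.05 (0.0101%). Without adjustment 607 genes (6.11%) fell under 0.05, 301 higher in cKO (3.03%) and 306 lower (3.08%). The single gene was Hspa1b, an inducible Hsp70 chaperone transcribed on heat and other protein-damaging stress. Hspa1b stood at 35.6 and 34.2 CPM in cKO pDCs (51 and 112 UMIs), against 146 and 119 CPM in WT pDCs (317 and 405 UMIs), with no overlap of the groups. It was lower in cKO by a log2 fold change of -1.91 ± 0.19 (adjusted p = 0.00280). These UMIs came from 10 and 31 of the cKO pDCs, against 50 and 84 of the WT pDCs, and the cell with the most held 31.4% and 10.7% of them in cKO, against 14.5% and 6.67% in WT.

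Its neighbour Hspa1a, which encodes nearly the same protein, stood at 34.9 and 42.8 CPM in cKO pDCs, against 160 and 96.4 CPM in WT pDCs, again with no overlap. Its log2 fold change was -1.67 ± 0.24 with an adjusted p of 0.0516, which does not pass. The copies are so alike that reads may be split between them, so each is uncertain on its own. The difference in Hspa1b was present in both Siglech bands. Hspa1b was at 48.8 and 46.0 CPM in low-Siglech cKO cells, against 307 and 243 CPM in low-Siglech WT cells, and at 34.1 and 32.7 CPM in high-Siglech cKO cells, against 124 and 97.8 CPM in high-Siglech WT cells. Without the pDCs above 2 times their library's median UMIs the log2 fold change was -1.69, and without those with a doublet score above 0.2 it was -1.85.

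**Figure D3:**
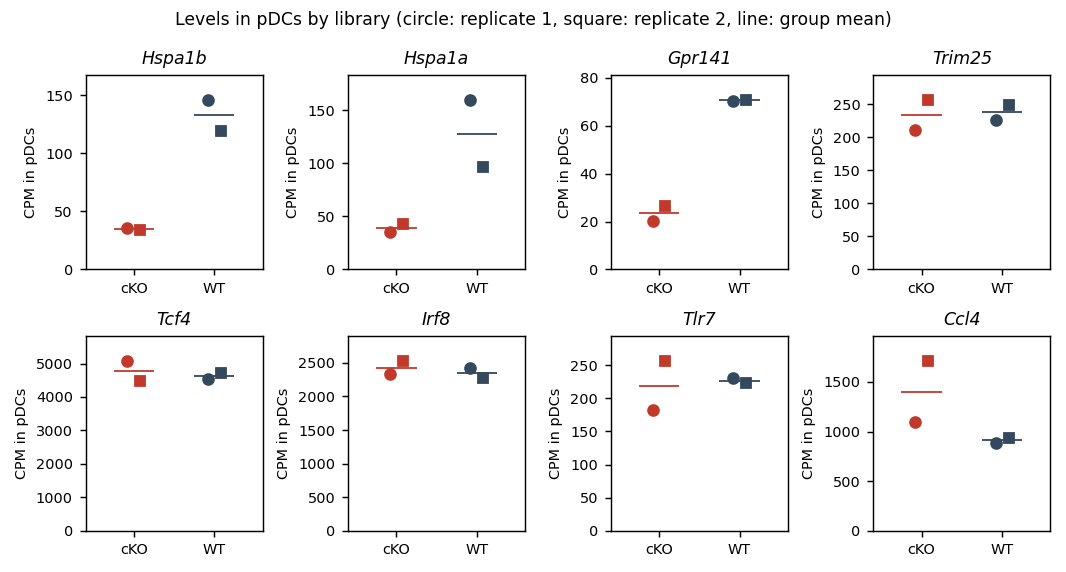
Level (CPM) of 8 genes in pDCs of each library, cKO on the left and WT on the right of each panel, with lines at the group means. Hspa1b, Hspa1a and Gpr141 lie lower in cKO-1 and cKO-2 than in WT-1 and WT-2, Ccl4 lies higher, and Trim25, Irf8 and Tlr7 overlap.

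Hsp70 differences were not limited to pDCs by level. Hspa1b was at 273 and 248 CPM in Cd209a-positive cells of cKO tumours, against 563 and 464 CPM in those of WT tumours (log2 fold change -0.99 ± 0.15, edgeR adjusted p = 0.129). In Xcr1/Clec9a-positive cells it was at 172 and 211 CPM in cKO, against 490 and 315 CPM in WT (log2 fold change -1.06 ± 0.23, edgeR adjusted p = 0.990). T cells overlapped, with 171 and 133 CPM in cKO, against 197 and 148 CPM in WT. The effect in pDCs differed from that in T cells by a log2 fold change of -1.72 ± 0.18 for Hspa1b (adjusted p = 0.00789, edgeR interaction test) and of -1.69 ± 0.18 for Hspa1a (adjusted p = 0.00789). From that in Cd209a-positive cells it differed by -0.92 for Hspa1b, which did not pass (edgeR adjusted p = 0.221).

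**Figure D4:**
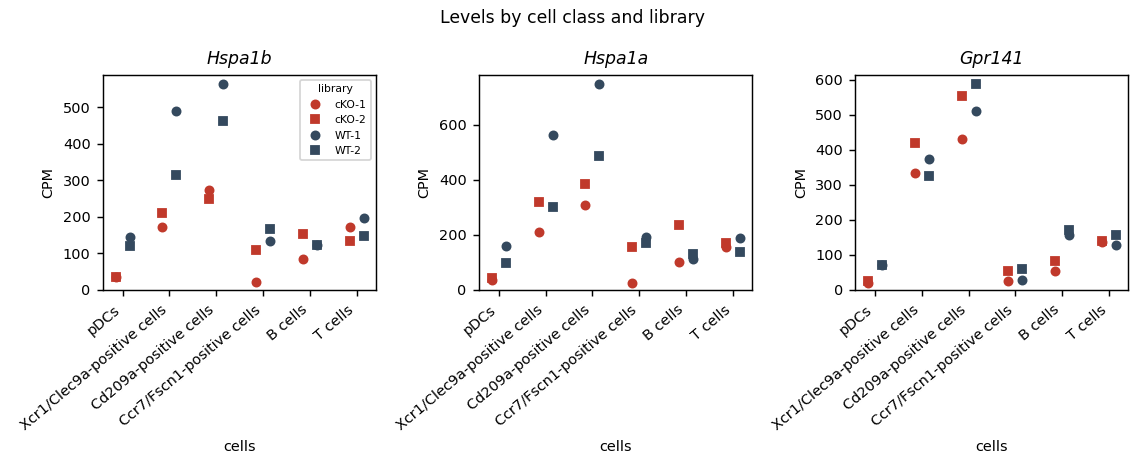
Level (CPM) of Hspa1b, Hspa1a and Gpr141 by cell class (x axis), each point 1 library, cKO to the left of WT within a class (circles replicate 1, squares replicate 2). Hspa1b is lower in both cKO libraries in pDCs, Xcr1/Clec9a-positive, Cd209a-positive and Ccr7/Fscn1-positive cells and overlaps in B and T cells.

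The other genes with low p-values did not pass. The 3 given first were higher in cKO, whereas Gpr141, Hspa1a and Morrbid, lower in cKO, had smaller unadjusted p-values than these. Dennd4a, which encodes a DENN-domain protein, was at 1316 and 1047 CPM in cKO pDCs, against 739 and 664 CPM in WT pDCs (log2 fold change 0.76 ± 0.14, edgeR adjusted p = 0.151). Dapp1, a phosphoinositide-binding adaptor of lymphocyte receptors, was at 564 and 501 CPM in cKO, against 328 and 323 CPM in WT (log2 fold change 0.72 ± 0.13, edgeR adjusted p = 0.151). The unnamed gene Gm49980 was at 183 and 169 CPM in cKO, against 89.7 and 95.3 CPM in WT (0.93 ± 0.16 on the log2 scale, edgeR adjusted p = 0.114). All 3 were separated between the groups, as were 16.3% of all genes in this direction. Over the other settings tried, the adjusted p ran from 2.35e-06 to 0.364 for Dennd4a, from 0.000195 to 0.364 for Dapp1 and from 7.4e-05 to 0.276 for Gm49980. None of the 3 passed with RLE normalization, with 5 or more Siglech UMIs, with at most 10% mitochondrial UMIs, without WT-1 (0.0856, 0.189 and 0.180 in that order) or without WT-2 (0.364, 0.364 and 0.276).

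Of the genes with the lowest p-values, 4 others were lower in both cKO libraries, and none passed. Gpr141, an orphan receptor gene, was at 20.2 and 26.6 CPM in cKO pDCs, against 70.4 and 70.8 CPM in WT pDCs (log2 fold change -1.54 ± 0.21, edgeR adjusted p = 0.0505). In all other cells Gpr141 averaged 476 CPM and was also lower in both cKO libraries, at 400 and 448 CPM, against 545 and 513 CPM in WT. Without cells with a doublet score above 0.2 its log2 fold change was -0.88. Morrbid, a long non-coding RNA that prolongs the life of short-lived myeloid cells, was at 14.7 and 23.8 CPM in cKO, against 98.5 and 53.4 CPM in WT (-1.87 ± 0.31, edgeR adjusted p = 0.114). Adgre4, a macrophage adhesion receptor gene, gave 1 and 1 UMIs in cKO pDCs, against 50 and 34 UMIs in WT pDCs, in 12 and 11 of the WT cells. Ace, the angiotensin-converting enzyme gene, gave 0 and 1 UMIs in cKO, against 21 and 19 UMIs in WT. The 6 monocyte markers measured, all with a UMI, summed to 258 and 685 CPM in cKO pDCs, against 1106 and 680 CPM in WT pDCs, and 7 macrophage markers to 135 and 189 CPM, against 296 and 173 CPM; their part in these differences was not tested. Gpr141 also differed in B cells, at 55.0 and 83.7 CPM in cKO, against 158 and 170 CPM in WT (log2 fold change -1.23 ± 0.23, edgeR adjusted p = 0.0188).

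No gene of the identity programme passed. Of 18 identity transcription factors and partners, 0 passed and 0 reached an unadjusted p under 0.05 (6.11% of all genes did). Their median log2 fold change was 0.04, against 0.00424 over all genes. Tcf4 was at 5069 and 4467 CPM in cKO pDCs, against 4553 and 4731 CPM in WT pDCs, and Irf8 at 2328 and 2525 CPM, against 2430 and 2271 CPM. Runx2 was at 2033 and 1933 CPM in cKO, against 2318 and 2341 CPM in WT (log2 fold change -0.22 ± 0.11, edgeR adjusted p = 0.837). A p above the threshold does not show equal levels.

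Surface receptors and their signalling chain gave 19 tested genes, of which 0 were higher and 1 lower at an unadjusted p under 0.05 (3.03% and 3.08% of all genes), and 0 passed. The lower gene was Fcgr2b, the inhibitory Fc receptor, at 57.3 and 56.2 CPM in cKO pDCs, against 75.9 and 79.6 CPM in WT pDCs (-0.45 ± 0.18 on the log2 scale, edgeR adjusted p = 0.737). Tyrobp (DAP12), the adaptor through which Siglec-H signals, was at 1637 and 1656 CPM in cKO, against 1690 and 1711 CPM in WT. Of 22 genes of endosomal sensing and of 12 genes of cytosolic sensing, none reached an unadjusted p under 0.05 (6.11% of all genes did). Unc93b1, which carries Toll-like receptors to endosomes, was at 552 and 613 CPM in cKO, against 687 and 715 CPM in WT (edgeR adjusted p = 0.837). Ifih1 (MDA5) was at 136 and 224 CPM in cKO, against 197 and 223 CPM in WT, and Ddx58 (RIG-I) at 16.8 and 30.3 CPM, against 41.4 and 32.7 CPM.

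Among 11 tested interferons, cytokines and chemokines, 2 were higher and 1 lower at an unadjusted p under 0.05 (3.03% and 3.08% of all genes). Ccl4 was at 1096 and 1709 CPM in cKO pDCs, against 884 and 938 CPM in WT pDCs (log2 fold change 0.64 ± 0.17, edgeR adjusted p = 0.411). Il1b was at 196 and 388 CPM in cKO, against 222 and 154 CPM in WT, and 76.9% of its UMIs in cKO-1 came from 1 cell. Ccl5, another chemokine gene, was at 17.5 and 42.5 CPM in cKO, against 53.4 and 71.4 CPM in WT (log2 fold change -0.96 ± 0.31, edgeR adjusted p = 0.512). None of the 3 passed.

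Genes of the type I interferon response leaned lower in cKO without any that passed. Of 35 tested, 29 had a log2 fold change below 0 (49.4% of all genes had), 6 were lower and 0 higher at an unadjusted p under 0.05 (3.08% and 3.03% of all genes), and in 14 both cKO libraries were below both WT libraries (18.1% of all genes). The list's median log2 fold change was -0.23. Ifit1, an RNA-binding antiviral effector, was at 14.7 and 47.1 CPM in cKO pDCs, against 63.1 and 73.1 CPM in WT pDCs (-1.01 ± 0.34 on the log2 scale, edgeR adjusted p = 0.567), and Ifit2 at 78.2 and 205 CPM, against 245 and 250 CPM (-0.75 ± 0.30, edgeR adjusted p = 0.738). In both genes cKO-1 was far below the other 3 libraries. The other 4 were Slfn5, Slfn8, Ifi206 and Oas2, with log2 fold changes of -0.37 to -0.84. Other members overlapped between the groups: Ly6a was at 2102 and 2738 CPM in cKO, against 2341 and 2764 CPM in WT, and Irf7 at 221 and 290 CPM, against 261 and 257 CPM.

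The interferon pattern depended on 1 library. Without cKO-1 the list's median log2 fold change was 0.002, with 18 members above and 17 below 0. Without cKO-2 it was -0.62, and 11 members were lower at an adjusted p under 0.05 in that fit, in which the lone cKO library is assumed to vary like the others. Without pDCs above 2 times the median UMIs the median was -0.12, with 3 members lower at an unadjusted p under 0.05. In other cells the level of Ifit1 also stood lower in cKO-1, at 258 CPM, and at 332 CPM in cKO-2, against 383 and 365 CPM in the WT libraries.

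Antigen presentation genes gave no calls. None of 13 MHC class II genes and none of 18 MHC class I genes reached an unadjusted p under 0.05, and the list medians were 0.004 and 0.03. Of all genes 6.11% did, and at that share lists this short can hold none. Cd74, the invariant chain, was at 1389 and 2078 CPM in cKO pDCs, against 1355 and 1676 CPM in WT pDCs, and H2-K1, a class I heavy chain, at 3594 and 3944 CPM, against 4227 and 4011 CPM. The secretory pathway, expanded in pDCs for interferon export, had 21 tested genes and growth factor receptors and survival genes 20. None of these reached an unadjusted p under 0.05 either (6.11% of all genes did). Hspa5 (BiP), the endoplasmic reticulum member of the Hsp70 family, was at 855 and 1014 CPM in cKO, against 948 and 845 CPM in WT.

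Costimulatory and checkpoint genes were mixed, with 1 higher and 3 lower of 15 at an unadjusted p under 0.05 (3.03% and 3.08% of all genes) and 0 that passed. Havcr2 (TIM-3) was at 4.88 and 13.1 CPM in cKO pDCs, against 46.9 and 22.1 CPM in WT pDCs (-1.74 ± 0.43 on the log2 scale, edgeR adjusted p = 0.353). Tnfsf10 (TRAIL), a death ligand, was at 5.58 and 7.34 CPM, against 11 and 16.2 CPM, and Cd83 was higher, at 32.1 and 21.4 CPM in cKO, against 15.6 and 14.5 CPM in WT. Gzmb was at 36.3 and 113 CPM in cKO, against 142 and 289 CPM in WT (-1.45 ± 0.39, edgeR adjusted p = 0.411), with the single-cell shares given above. Cd274 (PD-L1) overlapped, at 52.4 and 70.6 CPM, against 69.0 and 56.9 CPM.

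In the trafficking list 1 of 16 genes was higher and 3 lower at an unadjusted p under 0.05 (3.03% and 3.08% of all genes), and 0 passed. Itgal, the LFA-1 integrin alpha chain, was at 198 and 177 CPM in cKO pDCs, against 277 and 249 CPM in WT pDCs (-0.48 ± 0.15, edgeR adjusted p = 0.480). The chemokine receptor genes Ccr2 and Cxcr3 were at 176 and 172 CPM and at 30.7 and 44.9 CPM in cKO, against 234 and 234 CPM and 66.3 and 61.3 CPM in WT, and Cxcr4, the marrow retention receptor, at 48.9 and 48.3 CPM in cKO, against 36.8 and 32.7 CPM in WT. Each of these 4 genes was separated between the groups, as were 6 of the 16 in all (2 higher and 4 lower in cKO), against 16.3% and 18.1% of all genes in these directions. Their adjusted p-values ran from 0.480 to 0.776 (edgeR).

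The immediate early and dissociation stress list had 20 tested genes, of which 1 passed, Hspa1b, and 1 was higher and 3 lower at an unadjusted p under 0.05 (3.03% and 3.08% of all genes). Btg2, an anti-proliferative immediate early gene and the third of the lower ones beside the Hsp70 pair, was at 230 and 269 CPM in cKO pDCs, against 405 and 319 CPM in WT pDCs (edgeR adjusted p = 0.480), and Nfkbia, the NF-kB inhibitor, at 373 and 393 CPM, against 327 and 218 CPM (edgeR adjusted p = 0.621). Fos overlapped, at 959 and 1485 CPM in cKO, against 1696 and 1176 CPM in WT, and so did the heat-shock genes Hspa8, at 575 and 868 CPM, against 649 and 635 CPM, and Dnajb1, at 44.7 and 54.7 CPM, against 50.2 and 35.1 CPM. These genes can be induced while tissue is taken apart, and the labels give no dissociation times; the part of handling in the Hsp70 difference was not tested. The oxidative phosphorylation and glycolysis list had 18 tested genes with 2 higher at an unadjusted p under 0.05 (3.03% of all genes), Uqcrc1 and Hk2, and 0 lower.

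Among proliferation genes, 1 cell in each cKO library held most of the Mki67 and Top2a UMIs. All 18 tested members had a log2 fold change above 0 (50.6% of all genes had), 12 were higher at an unadjusted p under 0.05 (3.03% of all genes), 0 passed, and the median was 0.95. Mki67 was at 24.4 and 14.7 CPM in cKO pDCs, against 8.75 and 4.42 CPM in WT pDCs, and Top2a at 37.0 and 22 CPM, against 9.67 and 7.08 CPM. In cKO-1, 1 cell of 48511 UMIs held 70 of the 88 Mki67 and Top2a UMIs, and in cKO-2, 1 cell of 112541 UMIs held 69 of 120, whereas the top cells of WT-1 and WT-2 held 6 of 40 and 3 of 39. Without the 30 pDCs above 2 times the median UMIs, those 2 cells among them, the sums were 15 and 35 UMIs in cKO pDCs, against 32 and 37 UMIs in WT pDCs, the median over 11 tested members was -0.03 and 0 reached an unadjusted p under 0.05. Hmmr, a mitotic gene among the 10 lowest p-values, gave 9 and 34 UMIs in cKO pDCs, against 2 and 2 UMIs in WT pDCs, and 1 cell held 66.7% and 94.1% of those in cKO. After thinning, 1 of 94 and 6 of 223 cKO pDCs had a UMI of either gene, against 5 of 164 and 6 of 296 WT pDCs.

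**Figure D5:**
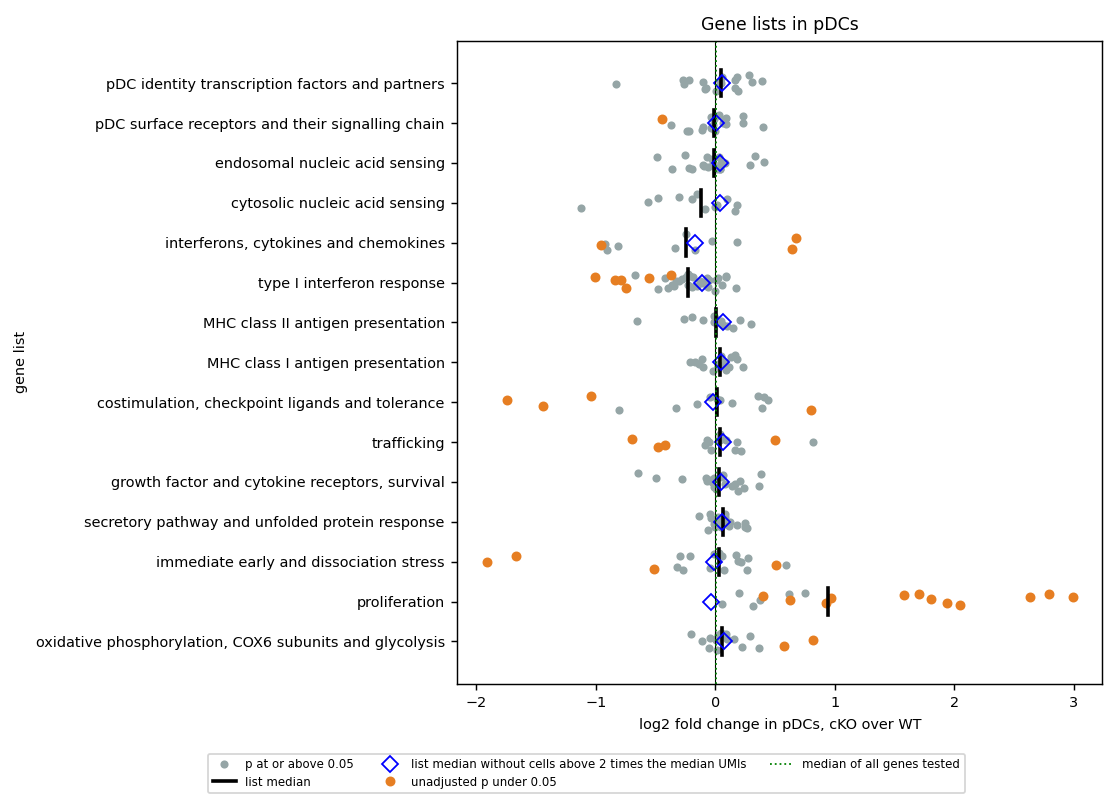
Log2 fold change of each tested member of 15 gene lists in pDCs, cKO over WT (x axis), with those at an unadjusted p under 0.05 in orange, list medians as bars and the median of all genes as a dotted line. Open diamonds are the list medians without cells above 2 times the median UMIs: the proliferation median is then -0.03 in place of 0.95, and that of the interferon response -0.12 in place of -0.23.

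The last question was which genotype effects in pDCs differ from those in other cells of the same libraries. Against T cells, 12 of 13236 genes passed the edgeR interaction test (0.0907%), and 6.13% fell under 0.05 without adjustment. Lower by comparison in cKO pDCs were Hspa1b, Hspa1a, Gpr141, Fgl2, Hdac9 and Btg2, and higher were Top2a, Rrm2, Pclaf, Hmgb2, Cdca8 and Chl1. Most of the higher genes act in DNA replication or mitosis, and 1 cell held 78.6% and 79.4% of the Rrm2 UMIs of the cKO libraries. Against Cd209a-positive cells, 4 of 10298 genes passed (0.0388%), and 4.8% fell under 0.05 without adjustment. The 4 were Gpr141, lower by comparison, and S100a8, S100a9 and G0s2, higher. The last 3, genes of neutrophils, had 42, 130 and 66 UMIs in cKO-2, of which 1 cell held 100%, 97.7% and 83.3%. Fgl2, a fibrinogen-like immunoregulatory protein, was spread over more cells, with UMIs in 19 and 54 cKO pDCs, against 46 and 74 WT pDCs.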

How the data were processed

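CD45-positive cells of 4 MC38 tumour libraries, 2 cKO and 2 WT, were measured with a Chromium Single Cell 3′ v3 kit, per the labels' protocols. The authors deposited filtered matrices of UMI counts per gene and cell barcode; per the submitters' processing notes, Cell Ranger and STAR were used, without versions, and the build was mm10. The deposited barcodes are 20 bases long. Depth was 96751399 to 127449324 UMIs per library over 40890 barcodes and 32285 genes.

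Kept cells had 300 or more genes, 500 or more UMIs and no more than 15% mitochondrial UMIs. T cells had at least 3 CD3 UMIs, B cells at least 3 of Cd79a with a further B cell marker, and dendritic cell classes at least 2 of Xcr1 and Clec9a, 2 of Cd209a without these, or 2 of Fscn1 with 1 of Ccr7, all with at most 1 Siglech UMI and within the same limits on the other lineages. UMIs of a class were added up in each library. The 4 sums entered the quasi-likelihood test of edgeR 4.0.16 (R 4.3.3, TMM, filterByExpr, Benjamini-Hochberg adjustment over all genes tested). Interaction fits held the library, the class and the product of class and genotype. CPM are UMIs per 1000000 of the class sum; SE is the fold change over the root of F. DESeq2 1.42.0 was an alternative. Scrublet (scanpy 1.11.5) marked 0 cells at its automatic threshold, so it did not work as a caller; doublets were kept and scores above 0.2 left out as an alternative. Tests were tried on simulated counts.

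Named genes were those past an adjusted p of 0.05 (up to 15 in each direction), the 10 lowest p-values where fewer passed, the markers and targeted genes, the 20 leading genes (ratio of mean CPM plus 1, at least 100 CPM in pDCs of every library), the 15 most uneven, and list members of at least 50 CPM or with a call; of these, the text gives the ones with a role to describe, and singled-out others were chosen after their values were seen. The members and the 15 gene lists were chosen with earlier results of these data known. The labels give no pairing of same-numbered libraries. Over 9938 genes the correlation of their deviations was -0.0166, which cannot exclude a pairing. The share of pDCs was lower in replicate 1 than in replicate 2 of both groups. Mx1, Mx2, Tasl, Ddit3 and Aldoa were not matched, and Myd88, at 0 in every kept cell, is not analysed here.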

Additional observations from a re-analysis of the deposited data

Results flagged for a closer look

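Each gene here changed between cKO and WT tumours by a different amount in pDCs than in another cell class of the same libraries, by an edgeR interaction test at an adjusted p under 0.05. Values are differences of log2 fold changes, pDCs minus the other class. Against T cells they were -1.72 for Hspa1b, -1.69 for Hspa1a, -1.50 for Gpr141, -1.55 for Fgl2, -1.17 for Hdac9 and -0.90 for Btg2, and 1.90 for Top2a, 3.18 for Rrm2, 1.94 for Pclaf, 3.84 for Cdca8, 0.90 for Hmgb2 and 3.09 for Chl1. The 12 genes passed again under no filter, but 4 of them passed with Siglech at 5 or more UMIs, and 7 under the other normalization. In cKO-1 and cKO-2, 1 cell held 90.0% and 77.3% of the Cdca8 UMIs and 93.2% and 59.1% of those of Pclaf. For Top2a it was 73.6% and 63.9%, for Rrm2 78.6% and 79.4%, for Chl1 35.0% and 57.8%, and for Hmgb2 25.3% and 20.2%. The interaction test was not repeated without such cells.

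Against Cd209a-positive cells they were -1.42 for Gpr141, 9.78 for S100a8, 9.30 for S100a9 and 10.68 for G0s2. The last 3 rest on 1 cell of cKO-2 and on groups with few UMIs, so their sizes depend on the fit; without cKO-2, 1 of the 4 genes passed, and without WT-2, 0. Groups of 2 libraries were too small for a search for outlying samples.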

How the results depend on the processing

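The lower level of Hspa1b in cKO pDCs passed in all 13 settings, with log2 fold changes of -2.06 to -1.69 and adjusted p up to 0.0108; Hspa1a passed in 9 and Gpr141 in 8. The count of genes changed in pDCs, 1 in the fit as reported, was 8 with DESeq2, 170 without the filter on low counts, 2 with Siglech at 5 or more UMIs, 2 with at most 10% mitochondrial UMIs, 10 without doublet scores above 0.2, 10 without cells above 2 times the median UMIs (chosen after seeing the data) and 7 to 264 with 1 library left out, where a lone library is assumed to vary like the other group. It was 46 with the replicate block, although the labels give no pairing of same-numbered libraries. The genes differing from T cells, 12 as reported, were 7 with RLE normalization, 200 without the filter, 4 with Siglech at 5 or more and 33 to 149 with 1 library left out; those differing from Cd209a-positive cells, 4 as reported, were 76 without the filter and 0 to 170. The difference in pDC share lay between -0.924 and 0.337 percentage points with 1 library left out and kept its direction under the other 6 settings. The proliferation median turned to -0.032 without cells above 2 times the median UMIs, as did Mki67 (-0.27) and Top2a (-0.28), and the interferon median lay between -0.616 and 0.0023 with 1 library left out. Trim25 was at 0.031 without doublet scores above 0.2, at 0.040 without cells above 2 times the median UMIs and between -0.171 and 0.120 with 1 library left out. With 95 pDCs in the smallest library, genes under a few CPM rest on a handful of UMIs.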
